A study of Mus musculus with 6 samples.

Results

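The presynaptic vesicle and release genes described here are 42 genes whose proteins store neurotransmitter in synaptic vesicles, bring the vesicles to the membrane, fuse them with it, and recover them afterwards. They were read from RNA BS-seq (RNA bisulfite sequencing), in which bisulfite turns unmethylated cytosines into bases read as T, so that a cytosine still read as C is counted as 5-methylcytosine (m5C). Their members were chosen by name: every cytosine position listed as methylated by the caller, covered by at least 20 reads in each of the 6 libraries, and assigned to 1 of the 42 genes was kept. This left 3765 of the 214659 positions kept in the whole series, in 35 of the 42 genes. The cells were cortical neurons of wild-type C57BL/6 mouse embryos of both sexes (day E16.5), cultured for 7 days. All cultures, the 0 h controls included, had been silenced overnight from day 6 with 1 µM tetrodotoxin, which blocks voltage-gated sodium channels, and 100 µM DL-AP5, which blocks NMDA receptors. KCl at 55 mM was then added to depolarize the neurons, which were harvested without it (0 h, at rest) or after 2 h or 6 h, with 2 biological replicates for each time point, and poly(A)-selected RNA of the bulk culture was sequenced.

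At a nerve terminal, synapsins tether vesicles, the SNARE proteins synaptobrevin (Vamp2), syntaxin (Stx1a), and SNAP-25 (Snap25) pull vesicle and plasma membrane together, and synaptotagmins sense the calcium that triggers fusion. Complexins, Munc13 (Unc13a), and the RIM proteins ready the vesicle at the active zone, while dynamin, amphiphysin, endophilin (Sh3gl2), and synaptojanin retrieve its membrane. m5C in mRNA is rare, and the enzymes known to place it there are NSUN2, which prefers a cytosine followed by a G-rich stretch, and NSUN6, which prefers CTCCA.

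The 6 libraries listed between 1564646 and 2380612 positions, with a median coverage between 324 and 480 reads. A position was listed only where at least 1 read was unconverted, so presence in all 6 libraries selected for deeply covered positions: the kept member positions had a median coverage between 2172 and 3436 reads per library. At cytosines covered by at least 5000 reads with a level under 1%, the unconverted share was 0.0837% to 0.0869% in 5 libraries and 0.115% in the replicate 1 library of 6 h, which stood apart. At the 3443 member positions under 1% in every library, that library was again the highest (0.133%, against 0.0975% to 0.115% in the other 5). All 7 neuronal markers checked had kept positions, as had 3 of 6 astrocyte markers (Gfap, Aqp4, and S100b had none) and 0 of 5 microglial markers. The summed coverage of the 3 activity-induced genes with kept positions (Fos, Nr4a1, and Homer1) went from 592 and 584 scaled reads per position at rest to 14358 and 13469 after 2 h and 7856 and 7161 after 6 h.

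Of the 3765 member positions, 2109 (56.0%) lay in coding sequence, 1577 (41.9%) in 3′ UTRs, 78 in 5′ UTRs, and 1 in an intron (GENCODE M21, GRCm38). The mean level over the 6 libraries was under 1% at 3588 of them (95.3%), 1% to 3% at 109, 3% to 10% at 64, and 10% or more at 4. The number of kept positions per gene reached 510 for Syt4, 404 for Syt11, 299 for Vamp2, and 266 for Syt1. No position was kept for Syt3, Vamp1, Unc13b, Rims2, Bsn, Doc2a, and Doc2b, 1 each for Synpr and Pclo, and 3 for Sv2b. These genes were listed in single libraries, for example Bsn at 553 to 840 positions covered by at least 20 reads with a median coverage of 169 to 265, so that their level of methylation could not be followed here rather than being shown to be absent.

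A position was counted as methylated at a time point when its level was 10% or more with at least 6 unconverted reads in both replicates. By this rule 1 member position was methylated at rest, 4 were after 2 h, 3 were after 6 h, and 5 different positions were at any time point, against 1950, 2042, 1962, and 2236 positions of the whole series. The 5 positions are shown with 10 bases on either side, because their surroundings differ: the capitals mark the cytosine itself, or the 5 bases of the motif CTCCA or CNGGG (N is any base) where the cytosine opens one.
Rims1: gcccgaaccgCgcgtccccga
Syn1: aacatgacttCcaggatattg
Syp: ccttcctctaCTCCAtggggg
Syngr1: gccatcttgtCTGGGcggcac
Dnm1: gcgttcagaaCGGGGctcttt

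The Rims1 cytosine lies at position 22533684 of chromosome 1 (minus strand, coding sequence), that of Syn1 at 20865235 of chromosome X (minus strand, coding sequence), and that of Syp at 7644227 of chromosome X (plus strand, coding sequence). That of Syngr1 lies at 80118878 of chromosome 15 (plus strand, 3′ UTR) and that of Dnm1 at 32334818 of chromosome 2 (minus strand, coding sequence), all in GRCm38. Syp opens CTCCA, Syngr1 and Dnm1 open CNGGG, and Rims1 and Syn1 open neither. Among the kept positions each of the 5 stood alone: the nearest other methylated one on its strand lay 41488 bases or farther away. Positions that were not kept, such as the Dnm1 intron position given below, did not enter this distance.

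Among the active zone proteins, Rims1, a scaffold that binds Rab3 and calcium channels, carried the highest level of the 5. Its level was 9.47% and 9.15% at rest, 14.9% and 17.2% after 2 h, and 16.9% and 16.2% after 6 h, over 481 to 668 reads per library. Both libraries of 2 h and of 6 h lay above both libraries of 0 h, and 2 h and 6 h overlapped. Syn1, the synapsin that coats vesicles, had levels of 7.48% and 9.50% at rest, 13.5% and 13.2% after 2 h, and 13.7% and 10.7% after 6 h over 2915 to 4327 reads. Its 0 h libraries were again the lowest, while the 6 h libraries lay on both sides of those of 2 h.

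In Syp, which encodes the vesicle membrane protein synaptophysin, the level was 11.9% and 11.5% at rest, 9.45% and 12.7% after 2 h, and 10.6% and 11.1% after 6 h over 2315 to 3790 reads. Syp was the only one of the 5 methylated at 0 h, and it dropped out of the 2 h count because 1 library fell short of 10%. The vesicle protein synaptogyrin, encoded by Syngr1, had levels of 6.85% and 11.7% at rest, 10.2% and 10.3% after 2 h, and 7.89% and 13.7% after 6 h over 206 to 277 reads, so its replicates at 0 h and 6 h differed by more than the means of its time points. For Dnm1, the dynamin that pinches off endocytic vesicles, the levels were 7.57% and 8.36% at rest, 10.3% and 12.2% after 2 h, and 8.80% and 9.30% after 6 h over 742 to 1071 reads. The 95% Wilson half-widths ranged from 0.791 percentage points for Syn1 to 4.40 for Syngr1, and cover counting error only, since reads without molecular identifiers are not independent molecules.

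The members nearest the threshold show how close these counts were to it. At 0 h, the lower replicate was at 11.5% for Syp, inside, and at 9.15% for Rims1, outside. At 2 h it was at 10.2% for Syngr1, inside, and 9.45% for Syp, outside, and at 6 h at 10.6% for Syp, inside, and 9.14% for the complexin gene Cplx2, outside. A minimum level of 5% gave 6, 7, and 7 positions in time order, and a minimum of 20% gave none.

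**Figure D1:**
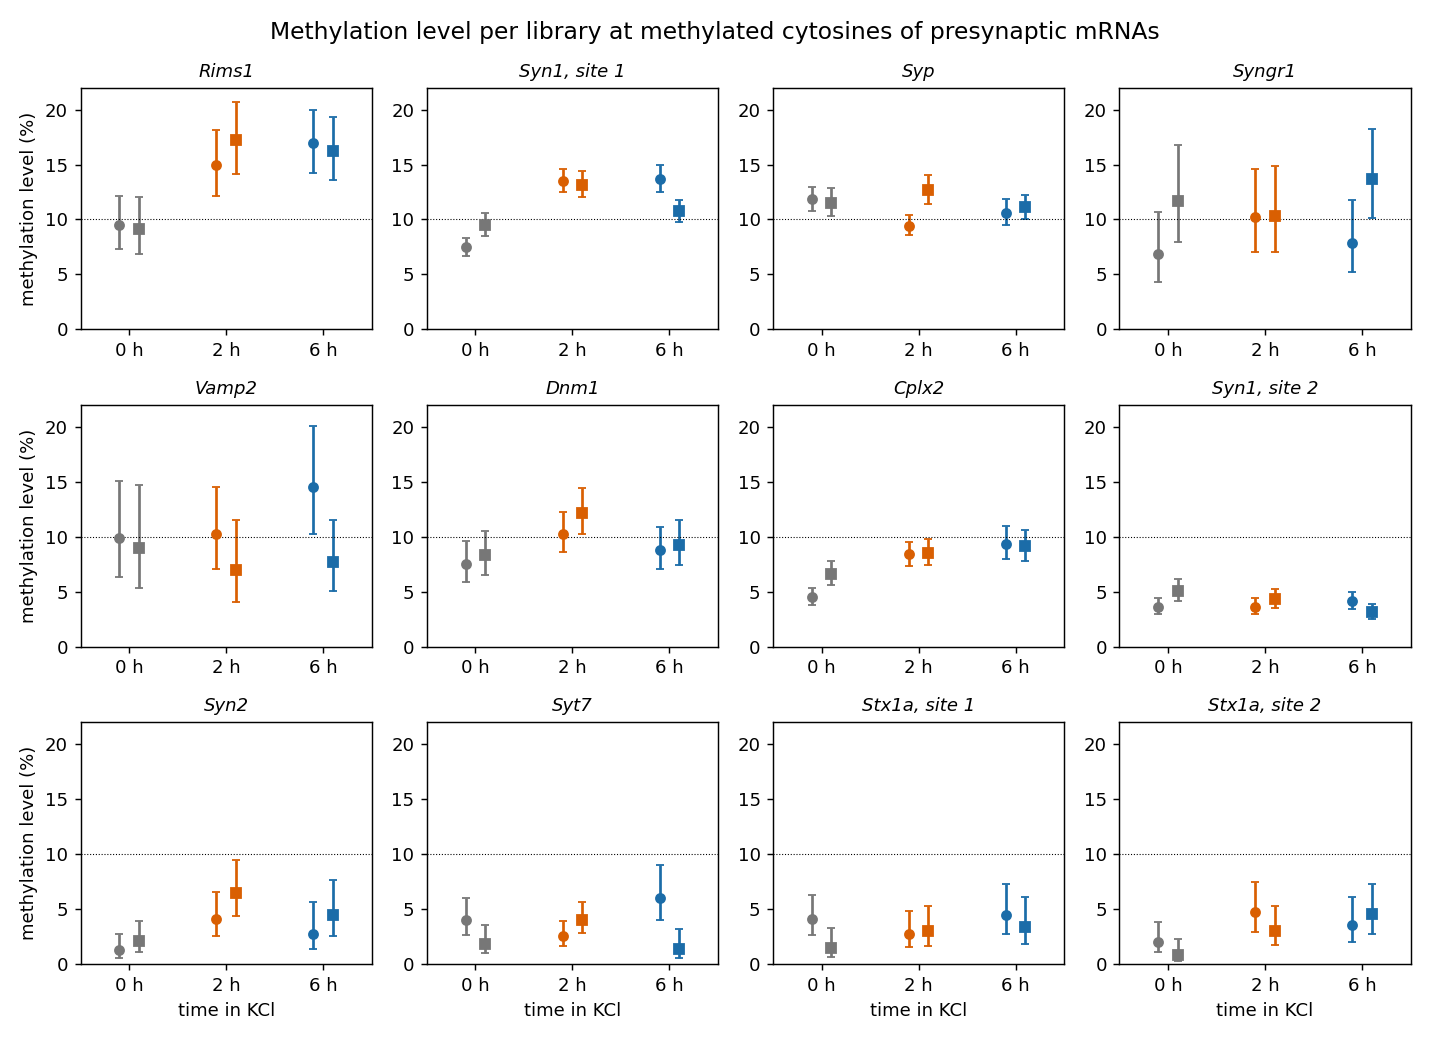
Methylation level (vertical axis, %) in each of the 6 libraries at the 5 methylated member positions and 7 further positions at 3% or more with at least 36 unconverted reads. Circles are replicate 1, squares replicate 2, bars the 95% Wilson interval, and the dotted line the 10% threshold. Rims1 and the first Syn1 site were lowest in both 0 h libraries, with means of 9.31% and 8.49%, while Syp stayed between 9.45% and 12.7%.

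To ask whether the levels changed with depolarization, unconverted and converted reads were summed over replicates and compared with two-sided Fisher's exact tests, adjusted over all 2236 methylated positions. At 2 h against 0 h, 3 of the 5 member positions were called, all higher, where 12.0% of all methylated positions were called. By Fisher's exact test Rims1 rose by 6.75 ± 1.44 percentage points (counting SE; adjusted p = 8.17e-05), Syn1 by 4.85 ± 0.523 (adjusted p = 8.83e-21), and Dnm1 by 3.28 ± 0.993 (adjusted p = 0.0152). A position entered this test by reaching 10% in both libraries of at least 1 time point, and Rims1, Syn1, and Dnm1 did so only after depolarization, so the choice of positions was not independent of a rise from 0 h. Dnm1 entered through its 2 h libraries alone. Among the 2141 positions chosen instead for 10% or more in the summed reads of all 6 libraries, which leave out Dnm1, Rims1 and Syn1 were called at 2 h (adjusted p = 9.64e-05 and 8.45e-21 by Fisher's exact test) and at 6 h, 2 of 4 members tested, where 9.53% and 8.22% of positions were called. Many of the 2236 positions are mitochondrial or sit in runs. Among the 377 in nuclear genes more than 10 bases from another methylated position, a class that holds all 5 members, 55.2% were called and 54.6% were called higher, so the members' 3 of 5 was close to this class. The median difference of that class was 6.93 percentage points, above that of Syn1 and Dnm1 and near that of Rims1.

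At 6 h against 0 h, Rims1 (7.26 ± 1.36 percentage points higher, adjusted p = 1.11e-05) and Syn1 (3.71 ± 0.526 higher, adjusted p = 3.07e-11) were called by Fisher's exact test, 2 of 5 members against 9.12% of all methylated positions and 32.9% of the 377. Without replicate 1 of 6 h, the library with the highest unconverted share, the Syn1 difference was 2.24 percentage points and was still called (adjusted p = 0.00137 by Fisher's exact test). Dnm1 differed by 1.09 ± 0.991 percentage points (Fisher's exact test, adjusted p = 0.708). At 6 h against 2 h, none of the 5 was called, where 15.8% of all methylated positions and 41.1% of the 377 were, the latter mostly lower (35.0%) with a median difference of -3.52 percentage points. At an unadjusted p under 0.05, Fisher's exact test marked 598 of all 2236 positions between 2 h and 6 h. Of the 5 members it marked 2, Syn1 (-1.14 ± 0.567) and Dnm1 (-2.19 ± 1.00). Rims1 differed by 0.518 ± 1.53 and Syp by -0.179 ± 0.584 percentage points between 2 h and 6 h. Syp and Syngr1 were called in no comparison, with differences from 0 h between -0.823 and 1.55 percentage points.

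Summed reads, as tested above, leave out the spread between replicates. limma on the library levels of all 2236 positions called no position of any gene, with 147, 89, and 112 of them at an unadjusted p under 0.05 for 2 h against 0 h, 6 h against 0 h, and 6 h against 2 h, none of which was a member. On the 377 alone, limma called Rims1 at 2 h (adjusted p = 0.0408, where 33.4% were called) but not at 6 h (adjusted p = 0.0628, where 7.96% were called), and called neither Syn1 (adjusted p = 0.0863 and 0.207) nor Dnm1 (adjusted p = 0.132 at 2 h). A quasi-binomial model, which also allows for replicate spread, called 3 members at 2 h and 2 at 6 h on the 377, where 47.7% and 23.6% were called. Fitted on all 2236 it called no member, with 3 and 2 of them at an unadjusted p under 0.05. No such count over all 2236 is given here. Dnm1 at 2 h also lost its call in Fisher's exact test without replicate 1 of 0 h (adjusted p = 0.237) or replicate 2 of 2 h (adjusted p = 0.230). Without replicate 2 of 2 h, Syp was called lower at 2 h (-2.25 percentage points, adjusted p = 0.00626 by Fisher's exact test), and without replicate 1 of 6 h, Syn1 was called lower at 6 h than at 2 h (-2.60 percentage points, adjusted p = 0.00224 by the same exact test).

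Further positions lay under 10% but well above the unconverted share. A set chosen after the data were seen, with at least 3% over the reads of all 6 libraries and at least 36 unconverted reads, held 12 member positions, the 5 above and 7 more. These 7 are shown for comparison with the first 5, with capitals as above.
Vamp2: ctgacattccCAGGGggtctc
Cplx2: cagctctcctCTGGGatgtat
Syn1, second site: gcctccccatCTCCAcagcgt
Syn2: gaccccaaacCAGGGagcttt
Syt7: cccttaccagCgagatgctca
Stx1a, first site: gccacggctgCgggtgttagg
Stx1a, second site: cgggccctggCcaggtctgcc

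Cplx2, a complexin that clamps and then promotes SNARE-driven fusion, had levels of 4.50% and 6.66% at rest, 8.40% and 8.56% after 2 h, and 9.40% and 9.14% after 6 h over 1511 to 2584 reads (chromosome 13, position 54381048, plus strand, 3′ UTR). All 4 later libraries lay above both 0 h libraries. In this wider set of 3275 positions of the series, Cplx2 was called by Fisher's exact test at 2 h (2.90 ± 0.534 percentage points, adjusted p = 3.80e-07) and at 6 h (3.69 ± 0.621, adjusted p = 1.37e-08). Syn2, the second synapsin (chromosome 6, position 115275453, plus strand, 3′ UTR), was at 1.27% and 2.11% at rest, 4.15% and 6.47% after 2 h, and 2.78% and 4.46% after 6 h, and was called at 2 h only (3.61 ± 0.915, adjusted p = 7.04e-04 by Fisher's exact test), while at 6 h it differed by 1.93 ± 0.923. These levels rest on 6 to 24 unconverted reads per library.

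Stx1a carried 2 such positions in its 3′ UTR on chromosome 5 (plus strand). The second site, 135050204, was at 2.04% and 0.804% at rest, 4.71% and 3.05% after 2 h, and 3.58% and 4.53% after 6 h, and was called at 2 h (2.46 ± 0.827, adjusted p = 0.0269) and at 6 h (2.64 ± 0.866, adjusted p = 0.0233) by Fisher's exact test, on 3 to 16 unconverted reads per library. The first site, 135050450, ranged from 1.51% to 4.50% with overlapping groups and was not called. Vamp2 (chromosome 11, position 69091647, plus strand, 3′ UTR) had levels of 9.89% and 8.97% at rest, 10.2% and 6.95% after 2 h, and 14.5% and 7.75% after 6 h over only 145 to 271 reads, with the replicates at 2 h and 6 h farther apart than the means of the time points. Between positions 69091007 and 69091909 around this site, 13 others passed in replicate 1 of 6 h alone, at a summed level of 19.9%. Their part in its level there was not tested, and as positions outside the kept set they did not enter the distances used here. Neither Syt7 (chromosome 19, position 10435673, plus strand, coding sequence), at 1.38% to 6.03%, nor the second Syn1 site (chromosome X, position 20862826, minus strand, coding sequence), at 3.14% to 5.07%, was called. In all, 6 of the 12 were called at 2 h and 4 at 6 h, all higher, where 16.8% and 15.7% of the 3275 positions were called. Among the 952 of these in nuclear genes more than 10 bases from another, which hold all 12, 43.4% and 30.9% were called, so the members' counts were close to this class. limma on the same set called none of the 12 at either time, with 2 and 1 of them at an unadjusted p under 0.05. No such count over the 3275 is given here. The 2 Syn1 sites lie 2409 bases apart on the chromosome and gave different values: the first rose in Fisher's exact test, and the second was 0.403 ± 0.422 percentage points lower at 2 h (adjusted p = 0.807 by the same exact test).

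The 2 motifs were counted among the 12 positions, which had to reach both 3% and 36 unconverted reads, and among all others. CTCCA opened at 38 of the 3765 member positions (1.01%) and CNGGG at 61 (1.62%), against 0.825% and 2.05% of all kept positions of the series. Of these 38 and 61, 2 (5.26%) and 5 (8.20%) were among the 12, against 5 of the other 3666 (0.136%). By mean level alone, with no minimum of unconverted reads, the motif counts stayed at 2 and 5, while 61 of the 3666 (1.66%) reached 3%. Over the whole series, with both minimums, the shares were 3.16%, 5.78%, and 1.42%. A motif did not mark a methylated cytosine by itself: the median level was 0.202% at CTCCA and 0.198% at CNGGG member positions, against 0.124% at the others, and 7 of 38 and 10 of 61 reached 1%. Positions with either motif at 1% to 3% lay in Syn1, Vamp2, Sv2a, Syngr1, Ppfia3, Napb, Cplx2, and Rph3a. Each motif was searched on the transcribed strand from the cytosine onward, and the 2 cannot overlap at 1 cytosine.

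1 further position passed the methylation rule at 0 h but was not kept, because it was not listed in replicate 2 of 2 h and had only 17 reads in replicate 1 of 2 h. It lies in an intron of Dnm1 (chromosome 2, position 32330844, minus strand), with levels of 28.1% and 26.9% at 0 h, 29.4% in replicate 1 of 2 h, and 33.3% and 7.5% at 6 h over 17 to 67 reads, hence on 5 to 14 unconverted reads.

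Coverage of the same positions gave a measure of how much of each mRNA was in the libraries. Reads per position were divided by a size factor per library, averaged over the kept positions of a gene, and tested on the log2 scale with limma over 2592 genes with at least 5 kept positions, of which 32 were members. Because the RNA came from bulk cultures, fewer cells of a type and less RNA per cell cannot be told apart. At 2 h against 0 h, 2 members were called higher and 8 lower, where 13.9% of all genes were called higher and 14.7% lower. At 6 h against 0 h, 5 members (15.6%) were called higher and 16 (50%) lower, against 31.1% and 31.6% of all genes. At 6 h against 2 h, 4 were called higher (12.5%) and 12 lower (37.5%), against 26.5% and 26.1%. The median log2 change of the 32 was -0.10, -0.17, and -0.08 in the 3 comparisons, against -0.03, 0.01, and 0.00 for all genes. The 0 h libraries enter 2 of the comparisons, so these are not independent of each other. The 8 lower calls at 2 h fell to 0 without replicate 1 of 0 h and to 1 without replicate 2 of 0 h. The 2 higher calls at 2 h fell to 1 without either 0 h library or replicate 1 of 2 h, the 5 at 6 h to 3 without replicate 2 of 0 h, and the 4 at 6 h against 2 h became 7 without replicate 1 of 2 h and 2 without replicate 1 of 6 h. Marker coverage also differed between the time points. The sum over 7 neuronal markers was 41276 and 41041 at rest, 34268 and 34708 after 2 h, and 35944 and 36387 after 6 h, and its members went different ways. Tubb3 fell from 17045 and 16307 at rest to 8409 and 8227 after 2 h, Nefl rose at 2 h and 6 h (log2 1.01 and 1.17) and Nefm at 6 h (log2 1.41), and Stmn2 had log2 changes of 0.04 at both times. The 5 excitatory neuron markers summed to 9417 and 8883 at rest, 10514 and 9456 after 2 h, and 11573 and 11878 after 6 h. Summed astrocyte marker coverage was 5371 and 5297 at rest, 4879 and 4609 after 2 h, and 4111 and 3920 after 6 h. That of 3 oligodendrocyte lineage markers was 3718 and 3924, 2497 and 2732, and 4144 and 4062 in the same order, mostly Olig1. Pdgfra among them had 544 and 577 at rest and 371 and 314 after 6 h. The 3 inhibitory neuron markers summed to 2870 and 2812 at rest and 5585 and 5209 after 6 h, mostly Gad1, while Dlx1 among them had 633 and 702 at rest and 502 and 491 after 6 h. The part of these markers in the members' values was not tested.

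**Figure D2:**
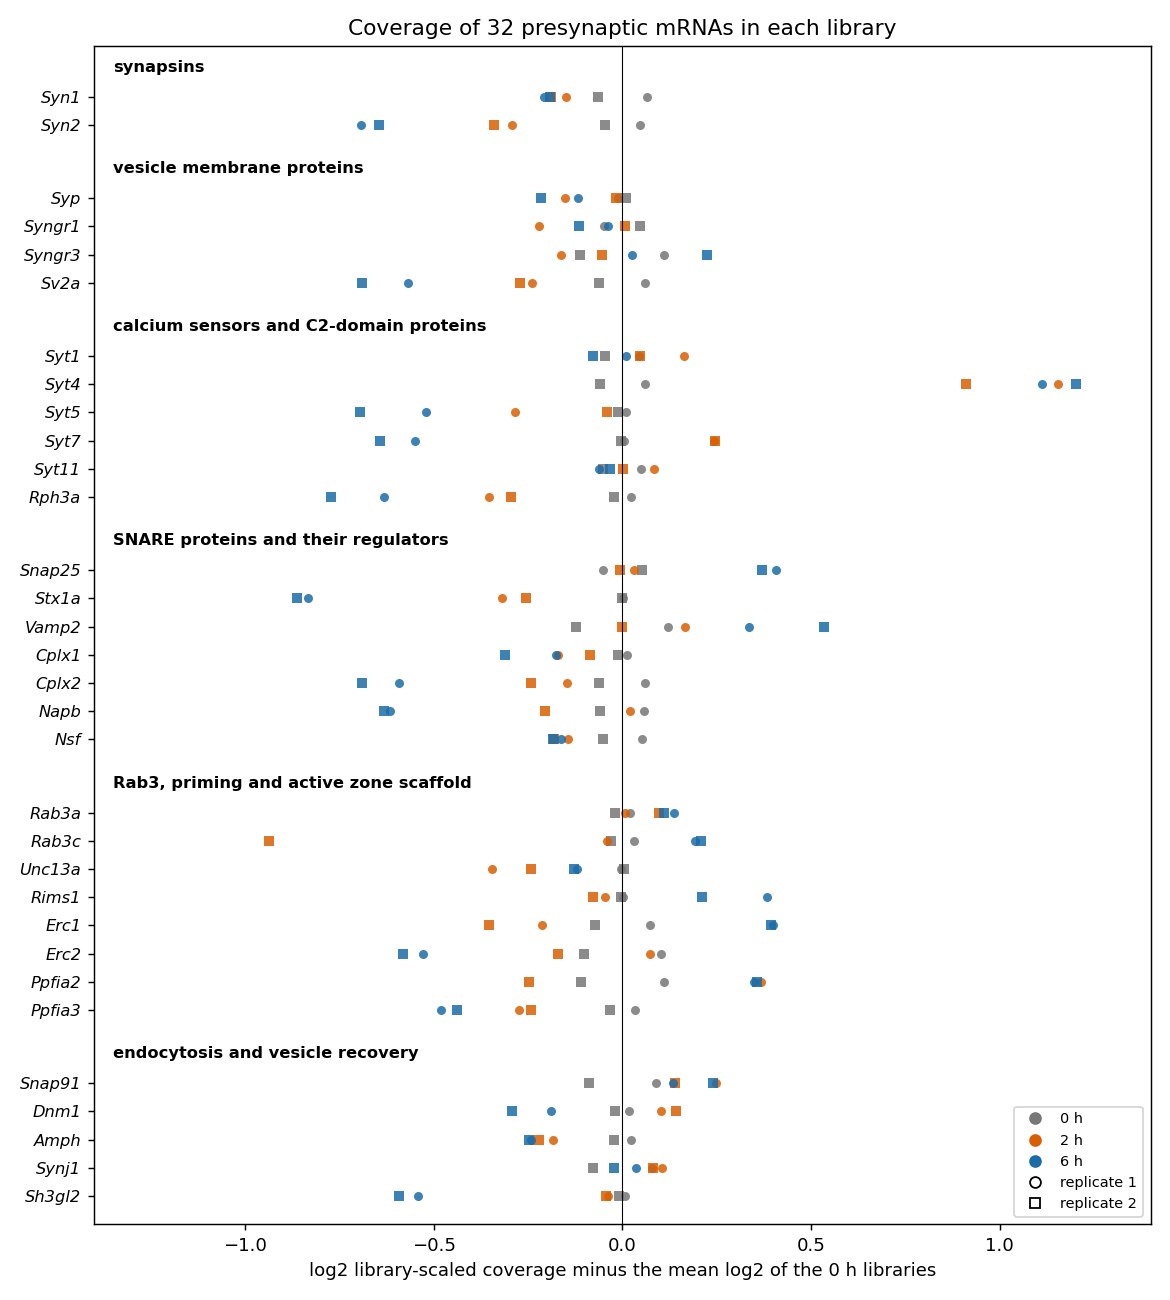
Change in library-scaled coverage of the 32 tested members, by role. The horizontal axis is the log2 coverage of each library minus the mean log2 of both 0 h libraries, so that grey points (0 h) show the replicate spread. Syt4 is the only member near 1, the 6 h points of 16 called members lie left of 0, and replicate 2 of 2 h stands apart for Rab3c.

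Among the calcium sensors, Syt4 rose the most of all members. This synaptotagmin does not bind calcium through its first C2 domain and is known as a gene induced by depolarization. Its scaled coverage was 2481 and 2283 reads per position at rest, 5296 and 4475 after 2 h, and 5144 and 5476 after 6 h. No 0 h library overlapped a later one, and the change was 2.05-fold at 2 h (log2 1.03 ± 0.09 SE, adjusted p = 0.00112) and 2.23-fold at 6 h (log2 1.16 ± 0.09, adjusted p = 1.81e-04). Syt1, the main fast calcium sensor of release, had 3060 and 2875 at rest, 3322 and 3064 after 2 h, and 2989 and 2809 after 6 h, with log2 changes of 0.10 and -0.03, neither of them called. Syt7, a slow high-affinity sensor, moved both ways: 672 and 669 at rest, 793 and 796 after 2 h, and 458 and 430 after 6 h. Its rise at 2 h (log2 0.24 ± 0.07, adjusted p = 0.0429) lost its call when any 1 of the 4 libraries was left out (adjusted p between 0.0908 and 0.153), while its fall from 2 h to 6 h (log2 -0.84 ± 0.07, adjusted p = 3.95e-04) was the largest of the members in that comparison.

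Rph3a encodes rabphilin, a Rab3 effector with C2 domains, and its coverage fell at both times. It stood at 1405 and 1362 at rest, 1083 and 1127 after 2 h, and 892 and 810 after 6 h, a log2 change of -0.32 ± 0.07 (adjusted p = 0.0190) and -0.70 ± 0.07 (adjusted p = 3.85e-04). Its 2 h call was lost without either 0 h library (adjusted p = 0.108 and 0.0808). Syt5 also fell at 6 h (log2 -0.61), and Syt11 had log2 changes of 0.04 and -0.05, which were not called. Of the 6 tested members of this group, 2 were called higher and 1 lower at 2 h, where 13.9% and 14.7% of all genes were, and 1 higher and 3 lower at 6 h, where 31.1% and 31.6% were.

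All 7 tested SNARE proteins and regulators were called at 6 h, 2 higher and 5 lower, where 31.1% of all genes were called higher and 31.6% lower. Stx1a, the syntaxin of the plasma membrane, fell in steps from 5852 and 5841 at rest to 4690 and 4903 after 2 h and 3280 and 3219 after 6 h. The groups did not overlap in any comparison, and its fall at 6 h was the largest of the 32 tested members (1.80-fold lower, log2 -0.85 ± 0.05, adjusted p = 6.59e-05). At 2 h its change was -0.29 ± 0.05 (adjusted p = 0.00852), a call lost when either 0 h library was left out (adjusted p = 0.0567 and 0.0548). Snap25, its partner on the same membrane, had 4639 and 4981 at rest, 4909 and 4787 after 2 h, and 6377 and 6216 after 6 h. Its groups at 0 h and 2 h overlapped (log2 0.01 ± 0.05), and those at 6 h lay above both (log2 0.39 ± 0.05 against 0 h, adjusted p = 0.00143).

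Vamp2, the SNARE protein of the vesicle, had 2262 and 1910 at rest, 2331 and 2078 after 2 h, and 2626 and 3009 after 6 h. It was higher at 6 h (log2 0.44 ± 0.11, adjusted p = 0.0157), a call lost without replicate 2 of 0 h (adjusted p = 0.0891) or of 6 h (adjusted p = 0.102). Cplx2 fell from 4068 and 3736 at rest, through 3524 and 3297 after 2 h, to 2585 and 2418 after 6 h (log2 -0.64 ± 0.07, adjusted p = 5.05e-04). Napb, a SNAP adaptor that recruits NSF to take SNARE complexes apart, had 2593 and 2394 at rest, 2527 and 2162 after 2 h, and 1627 and 1609 after 6 h, with a fall of 0.62 ± 0.09 on the log2 scale at 6 h (log2 -0.62, adjusted p = 0.00135). Cplx1 (log2 -0.24) and Nsf (log2 -0.17) were also called lower at 6 h. From 2 h to 6 h, Stx1a (log2 -0.56) and Napb (log2 -0.53) fell, and Snap25 (log2 0.38) and Vamp2 (log2 0.35) rose, the last of them with a call lost without replicate 2 of 2 h or either 6 h library (adjusted p between 0.0650 and 0.217).

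**Figure D3:**
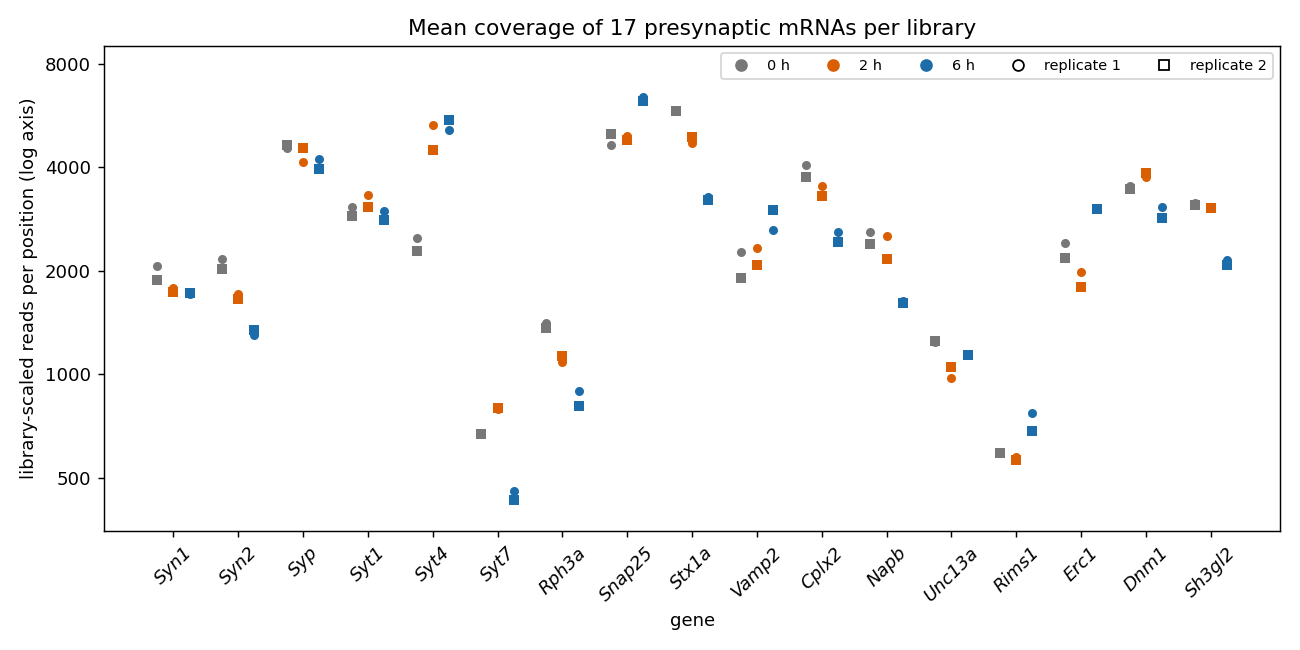
Library-scaled coverage (reads per position, log axis) of 17 named members in each library, coloured by time point, with circles for replicate 1 and squares for replicate 2. Stx1a, Syn2, Rph3a, and Cplx2 stepped down from 0 h to 6 h, Syt4 stepped up at 2 h, and Snap25, Rims1, and Erc1 were highest at 6 h.

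Both synapsins were called lower at 6 h, as were 31.6% of all genes. Syn2 went from 2163 and 2029 at rest to 1710 and 1656 after 2 h and 1296 and 1340 after 6 h, with log2 changes of -0.32 ± 0.06 (adjusted p = 0.0115) and -0.67 ± 0.06 (adjusted p = 2.30e-04). The 2 h call was lost without replicate 1 of 0 h (adjusted p = 0.0719). Syn1 changed less, from 2063 and 1885 at rest to 1779 and 1731 after 2 h and 1707 and 1728 after 6 h. Its 6 h change of -0.20 ± 0.06 (adjusted p = 0.0305) was lost without replicate 1 of 0 h or either 6 h library (adjusted p between 0.108 and 0.149). Of the 4 tested vesicle membrane proteins, Sv2a, a transporter-like glycoprotein, was called lower at 2 h and 6 h (log2 -0.26 and -0.63), and Syp, Syngr1, and Syngr3 were not called at either time. Syp had 4559 and 4631 at rest, 4139 and 4544 after 2 h, and 4235 and 3960 after 6 h (log2 -0.17 ± 0.06 at 6 h, adjusted p = 0.0660). Sv2b, with too few positions for the test, had 865 and 892 at rest, 736 and 714 after 2 h, and 455 and 475 after 6 h.

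Of the 8 tested genes of Rab3, priming, and the active zone, 2 were called higher and 2 lower at 6 h (25% each), near the 31.1% and 31.6% of all genes. Rims1 had 594 and 592 at rest, 575 and 562 after 2 h, and 774 and 686 after 6 h over its 5 kept positions, and was called higher at 6 h (log2 0.30 ± 0.08, adjusted p = 0.0194). That call was lost without either 0 h library or without replicate 1 of 6 h (adjusted p between 0.0720 and 0.112). Against 2 h its 6 h coverage was also higher (log2 0.36 ± 0.08, adjusted p = 0.0123), and this call was lost without replicate 1 of 6 h (adjusted p = 0.0808). Erc1, an ELKS scaffold that binds RIM, fell and then rose: 2413 and 2180 at rest, 1980 and 1797 after 2 h, and 3027 and 3015 after 6 h. Its change from 2 h to 6 h was 1.60-fold (log2 0.68 ± 0.07, adjusted p = 9.37e-04), and its 6 h groups lay above both others. The fall at 2 h (log2 -0.28 ± 0.07, adjusted p = 0.0342) was lost without either 0 h library or replicate 2 of 2 h (adjusted p between 0.0541 and 0.159). Its paralog Erc2 moved the other way at 6 h (log2 -0.56 ± 0.10, adjusted p = 0.00444), with 3454 and 2997 at rest and 2230 and 2150 after 6 h.

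Unc13a, the priming factor Munc13-1, had 1239 and 1246 at rest, 978 and 1051 after 2 h, and 1144 and 1138 after 6 h, and was called lower at 2 h only (log2 -0.29 ± 0.06, adjusted p = 0.0165). This call was lost without either 0 h library (adjusted p = 0.0872 and 0.0878), and the difference between 6 h and 2 h was not called (adjusted p = 0.0560). Ppfia3, a liprin scaffold, fell at both times (log2 -0.26 and -0.46). Rab3a, the vesicle GTPase, stayed within log2 0.12 of 0 h, and Ppfia2 and Rab3c were not called. For Rab3c, replicate 2 of 2 h stood apart at 1121, against 2084 in replicate 1 and 2098 to 2478 in the other 4 libraries.

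Among genes of endocytosis, Dnm1 had 3536 and 3450 at rest, 3752 and 3856 after 2 h, and 3063 and 2852 after 6 h, a fall at 6 h of log2 -0.24 ± 0.05 (adjusted p = 0.00997) that lost its call without replicate 1 of 0 h (adjusted p = 0.0597) or replicate 2 of 6 h (adjusted p = 0.0726). Sh3gl2, which encodes endophilin A1, had 3145 and 3111 at rest, 3047 and 3039 after 2 h, and 2151 and 2077 after 6 h (log2 -0.57 ± 0.05, adjusted p = 1.98e-04), and most of that fall lay between 2 h and 6 h (log2 -0.53 ± 0.05, adjusted p = 5.23e-04). Amphiphysin (Amph) was lower at both times (log2 -0.20 and -0.24), while Snap91 (log2 0.19 at both) and Synj1 (log2 0.09 and 0.01) were not called.

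Levels and coverage come from the same reads, the level of a position being the unconverted share of its coverage, and are set side by side here as a description. Rims1 had a higher level at 2 h at a coverage that was not called different (log2 -0.06 ± 0.08), and at 6 h both its level and its coverage (log2 0.30 ± 0.08) were called higher. Syn1 and Cplx2 had higher levels at 6 h in Fisher's exact test with lower coverage. Dnm1 had a higher level at 2 h in the same exact test, with a coverage change of 0.12 ± 0.05 on the log2 scale (log2 0.12, adjusted p = 0.147). Stx1a had the largest fall in coverage of the tested members at 6 h, and its second site was called higher there by Fisher's exact test but not by limma (adjusted p = 0.804).

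A further list of 77 presynaptic genes outside the 42 had 32 tested genes. At 2 h, 5 (15.6%) were called higher and 2 (6.25%) lower, and at 6 h, 7 (21.9%) higher and 12 (37.5%) lower, against 13.9% and 14.7% of all genes at 2 h and 31.1% and 31.6% at 6 h. Its median log2 change at 6 h was 0.01. The SNAP adaptors Napa (log2 -0.63) and Napg (log2 -0.96) and the vesicle protein Svop (log2 -0.58) fell at 6 h, while Dnajc5 (log2 0.43) rose. Among the clathrin coat and adaptor genes of the list, Cltc (log2 0.77), Picalm (log2 0.80), and Ap2b1 (log2 0.39) were called higher at 6 h, Ap2a1 (log2 -0.20) was called lower, and Clta, Cltb, Ap2a2, Ap2m1, and Ap2s1 were not called.

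Coverage along the gene was compared in the 25 members with at least 30 kept positions, whose positions were ordered along the transcript and split into 3 equal parts, as the change in the part nearest the start and in the part nearest the end. At 6 h against 0 h, the end part changed more upward than the start part in 12 of 25 and more downward in the others, with a median difference of 0.00, and at 2 h in 10 of 25 with a median of -0.02. A difference over 0.25 on the log2 scale occurred in 2 members at 2 h (Sv2a and Syn1) and in 3 at 6 h. The latter were Syt5 (start -0.84, end -0.37 at 6 h), Syn1 (start -0.20, end 0.14), and Cplx1 (start -0.29, end 0.04). For Syn1, the end part rests on 28 positions within 165 bases, whose change at 2 h was -0.14 between the replicates numbered 1 and 0.53 between those numbered 2. In Syt4 both parts rose alike at 6 h (1.16 and 1.09), and in Stx1a both fell alike (-0.89 and -0.82). No test was run on these differences.

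**Figure D4:**
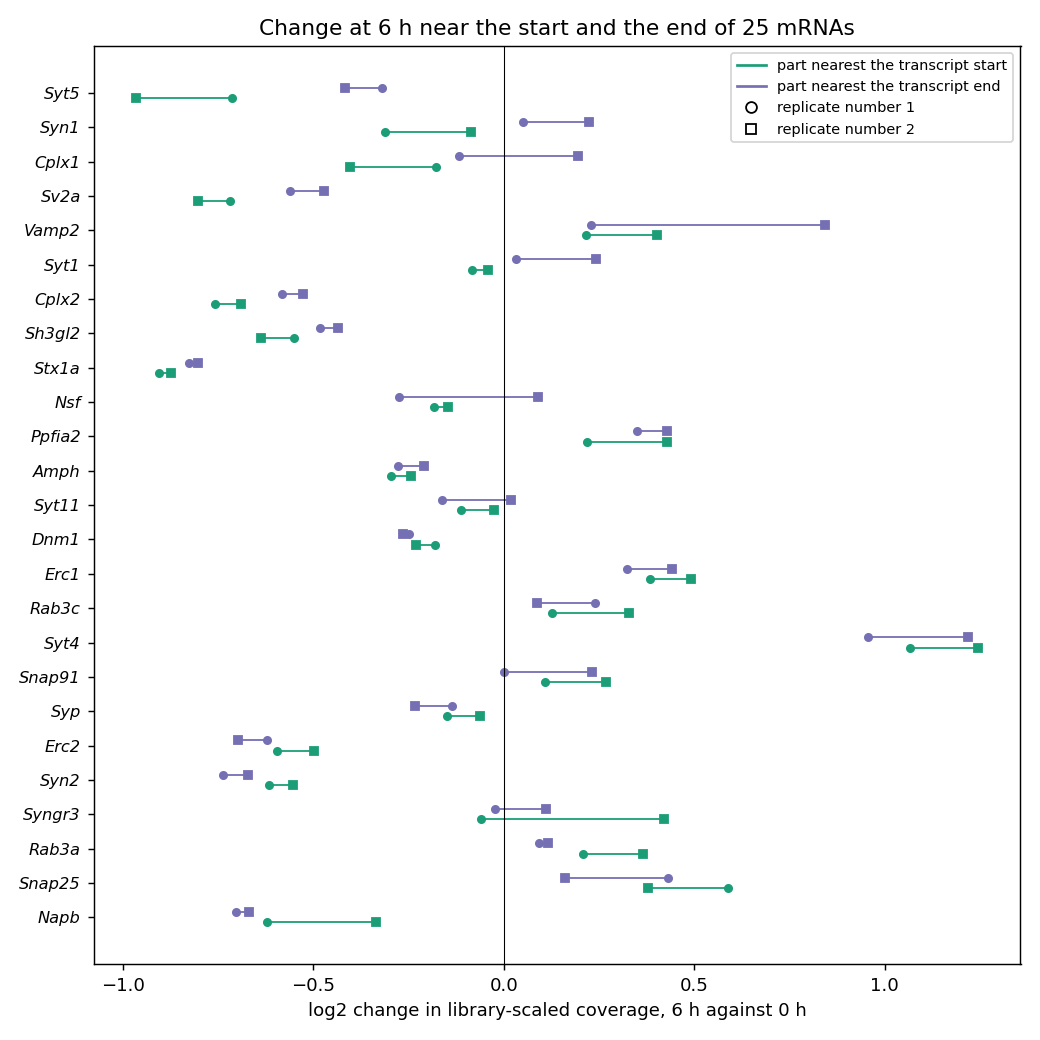
Log2 change in library-scaled coverage at 6 h against 0 h in the part of the kept positions nearest the transcript start (green) and that nearest the end (purple) of 25 members, ordered by the difference. Circles and squares are the changes between the replicates numbered 1 and 2, and the line joins them. For most members both parts moved alike, and Syt5, Syn1, and Cplx1 show the largest differences, with the end part higher.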

How the data were processed

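RNA BS-seq data of 6 libraries (3 time points, 2 biological replicates each) were used. Trimming, alignment to GRCm38 (mm10) and cytosine calling with meRanTK were done by the authors, who also used R (version 4.1.1, per the labels). They deposited, per library and listed position, counts of covering and unconverted reads, not normalized, and the methylation level as a fraction; the lists hold only positions with at least 10 reads and 1 unconverted read. Further columns (p-values and scores of the caller) were not used. The members, gene lists, role groups and tests were chosen with earlier results of these data known.

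Positions were joined over all 6 libraries (coverage of at least 20), and their 21-base contexts equalled the RefSeq GRCm38 genome at all 3765 member positions. Levels were tested with two-sided Fisher's exact tests on summed reads and Benjamini-Hochberg adjustment over 2236 positions, at an adjusted p of 0.05. Coverage was divided by size factors (median ratio to the geometric mean over genes; 0.867 to 1.16) and tested with limma (trend) over 2592 genes. Alternatives were other minimums, summed replicates, other scalings, limma and a quasi-binomial model for levels, edgeR and DESeq2 on summed coverage, the replicate block, and leaving out each replicate; those on isolated nuclear positions and on positions at 3% or more were added after seeing the data. Named for coverage were the 4 largest called rises and falls without overlap in each comparison, plus Syn1, Syp, Snap25, Syt1, Stx1a, Vamp2, Rims1, and Dnm1; other members named beside them were chosen after their values were seen.

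The tests were tried on simulated data for 2 h against 0 h. For coverage, log2 values were simulated with 1 common spread for all genes, unlike the data, where the spread differs between genes. limma recovered 100 of 100 genes changed by 1 on the log2 scale and 87 of 100 changed by 0.5, with 6 false calls among 2592 genes. In simulated reads, Fisher's exact test recovered 69 of 200 positions changed by 10 percentage points among 2236, with 5 false calls. The quasi-binomial model recovered 65 with 4, and limma 11 with 1. These reads were drawn from 1 level per position and time point, without added spread between replicates. The false calls therefore do not measure those of Fisher's exact test where replicates differ. R 4.3.3, limma 3.58.1, edgeR 4.0.16, DESeq2 1.42.0, Python 3.11.15, pandas 2.3.3, and scipy 1.17.1 were used.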

Additional observations from a re-analysis of the deposited data

Results flagged for a closer look

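3 signals lay outside the kept positions, each a run of positions that passed in 1 library at 6 h, while no position of these genes outside the kept set passed in either 0 h library. In the Vamp2 3′ UTR, 13 positions passed the coverage of 20, the level of 10% and the 6 unconverted reads in replicate 1 of 6 h, at levels between 10.0% and 40.0% over 20 to 60 reads. Over these positions the summed level was 19.9% in that library and 6.78% to 8.71% in the 3 others that listed all 13 (replicate 1 of 0 h and both of 2 h). Replicate 2 of 6 h listed 12 of them, at 6.43%, and replicate 2 of 0 h only 1, over 16 reads. In the Syn1 3′ UTR, 8 positions passed in replicate 1 of 6 h, with a summed level of 11.2%. Replicate 2 of 0 h listed all 8, at 2.00%, and the 2 h libraries 7 each, at 1.26% and 1.37%, while replicate 1 of 0 h listed 1 and replicate 2 of 6 h 2 of them. In the Syt4 3′ UTR, 9 neighbouring positions passed in replicate 2 of 6 h, with a summed level of 16.3%, and the same positions stood at 15.6% and 17.8% at 0 h, where their median coverage was 19 and 13 reads. Replicate 1 of 6 h had 2.98% and replicate 1 of 2 h 4.40% over all 9, and replicate 2 of 2 h had 3.29% over the 6 it listed. In all, 22 and 14 member positions outside the kept set passed in the 6 h libraries, against 3 and 1 in those of 0 h and 3 and 1 in those of 2 h. The members' shares at 6 h, 0.108% and 0.0966% of their positions outside the kept set, were near those of the whole series (0.0920% and 0.115%), while at 0 h and 2 h the members had 0.00755% to 0.0195% against 0.0398% to 0.149%. Replicate 1 of 6 h is the library with the highest unconverted share (0.115%), whose part in these runs was not tested.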

How the results depend on the processing

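The number of methylated positions at rest, after 2 h, and after 6 h (1, 4, and 3) did not change with a coverage minimum of 10 or 50 or with 10 unconverted reads, was 6, 7, and 7 with a minimum level of 5%, 0 at each time with 20%, and 2, 5, and 6 on summed reads; with 1 replicate left out it was 2, 5 to 6, and 4 to 6. The members called for level by Fisher's exact test (3, 2, and 0) became 0 with limma, with or without the replicate block, and with the quasi-binomial model over all positions (0 of 5 with limma and 3 and 2 with the quasi-binomial model at an unadjusted p under 0.05), and 6 and 4 of 12 at 3% or more (0 with limma). On isolated nuclear positions they were 1 and 0 with limma, 0 and 0 with the replicate block (Rims1 at 2 h, adjusted p = 0.0641 by limma), and 3 and 2 with the quasi-binomial model. Left-out replicates gave 2 to 3 for 2 h against 0 h, 2 for 6 h against 0 h, and 0 to 1 for 6 h against 2 h. Members called higher in coverage at 2 h (2) were 1 with the replicate block, with scaling by summed coverage, with the median over positions, with 20 or more positions, and on positions under 1%; those called lower (8) were 5 with the median or 20 or more positions and 4 with 1 or more positions. With libraries left out, higher and lower calls ranged from 1 to 2 and 0 to 9 (2 h against 0 h), 3 to 4 and 12 to 15 (6 h against 0 h), and 2 to 7 and 9 to 11 (6 h against 2 h).

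Replicate numbers did not pair the samples consistently. For coverage, deviations of same-numbered libraries correlated at 0.445 between 0 h and 2 h, -0.262 between 0 h and 6 h, and -0.276 between 2 h and 6 h. For levels the values were 0.0805, 0.0107, and -0.147 in the same order. A source of spread shared by same-numbered libraries of 0 h and 2 h was not tested. Signs turned among changes in which the full data made no call. For coverage at 2 h these were Snap25 (log2 -0.037 to 0.062 with libraries left out, -0.026 with scaling by summed coverage, -0.017 with 20 or more positions), Vamp2 (-0.041 to 0.207), Napb (-0.209 to 0.010), and Sh3gl2 (0.018 with 1 or more positions), and at 6 h Syt1 (-0.081 to 0.015, and 0.019 with 1 or more positions). Levels with libraries left out, in percentage points, ranged from -2.248 to 0.961 for Syp and -1.382 to 3.413 for Syngr1 at 2 h, from -1.358 to 4.466 for Syngr1 at 6 h, and, at 6 h against 2 h, from -1.783 to 1.425 for Syp, -2.374 to 3.45 for Syngr1, -0.617 to 1.653 for Rims1, and -2.605 to 0.327 for Syn1. Of 645 coverage values under alternatives, 583 kept direction and call, and of 258 level values 211 did so. Depth limits the level at Syngr1 and Vamp2, and genes with few kept positions (Rims1, Syt7, Rph3a) rest on 5 to 8.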
